A study of Oryza sativa with 4 samples.

Results

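The regions described here are rice genomic sites that OsbZIP69 and OsbZIP42 held in common and at which no OsbZIP77 peak was found. They were chosen by the presence or absence of called peaks: OsbZIP69 peaks with an OsbZIP42 peak centre within 100 bp and no OsbZIP77 centre within 100 bp on the same chromosome. Peak presence was thus used to choose the sites and is no finding about them; the signal values below are a description. The rule found 265 of the 1107 OsbZIP69 peaks, or 23.9%. They were set against the 815 OsbZIP69 peaks that had both an OsbZIP42 and an OsbZIP77 centre within 100 bp. The remaining 27 OsbZIP69 peaks had neither. All 4 lists of the series together hold 31683 peaks.

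The data are DAP-seq, in which fragments of naked genomic DNA are captured on a tagged protein and sequenced. DNA came from leaves of the cultivar Nipponbare, and the baits were HALO fusions of OsbZIP69 (labelled FD4), OsbZIP42 (labelled HBF1) and OsbZIP77 (labelled FD1), with HALO-GST as negative control. By the protocol label the bZIP fusions were made in rabbit reticulocyte lysate. For OsbZIP77 this rests on that label alone, as its deposited file name lacks the mark for the lysate that the other lists carry. Purified DNA carries no chromatin, so the lists show binding outside the plant. Each protein had 1 library, so nothing below has a replicate check and no test between proteins was possible. Intervals on shares are exact binomial 95% intervals and cover the counting of peaks alone.

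bZIP proteins grip DNA as dimers: a basic region contacts the bases and a leucine zipper joins the partners. FD-type members join florigen, a mobile flowering signal made in leaves, through 14-3-3 proteins in a florigen activation complex. OsFD1 was the first rice bZIP described in that complex, OsFD4 acts in the shoot apical meristem, and HBF1 is known as a repressor of rice florigen genes.

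Sites without OsbZIP77 were mostly weak OsbZIP69 sites. Signal here is the authors' value for a peak, in units that were not matched between libraries, and a rank is a peak's place in its list by signal, given as a percentage of the list's length with the strongest first. The OsbZIP69 signal had a median of 18.4 in the 265 peaks without OsbZIP77, with a range of 9.2 to 80, and a median of 29.0 in the 815 peaks with OsbZIP77, with a range of 10 to 263. The middle 50% of peaks lay between 14.9 and 24.0 without OsbZIP77 and between 21.0 and 48.6 with it. The ranges overlap widely, but the strongest OsbZIP69 peaks were nearly all in the set with OsbZIP77. The upper 50% of the OsbZIP69 list held 56 of the 265 peaks without OsbZIP77, or 21.1% (16.4 to 26.5), and 495 of the 815 with it, or 60.7% (57.3 to 64.1). Over both sets this share was 51.0%. The upper 10% of the list held 1 peak without OsbZIP77 and 108 with it.

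OsbZIP42 was also weaker at these sites, although its list served only to show that a peak was present. The median OsbZIP42 signal was 58.0 at sites without OsbZIP77 and 103 at sites with it. In ranks, the median site stood at 14.8% of the OsbZIP42 list without OsbZIP77 and at 5.36% with it. The OsbZIP42 peak fell in the lower 50% of its list at 28 of the 265 sites and at 15 of the 815 sites. Conversely, 13 sites without OsbZIP77, or 4.91% (2.64 to 8.24), had an OsbZIP42 peak in the upper 1% of its list, against 127 sites with OsbZIP77, or 15.6% (13.2 to 18.3). Within the whole OsbZIP42 list these sites were nevertheless strong. Their median of 58.0 compares with 23.0 over the 25825 OsbZIP42 peaks in neither shorter list, and lies close to 60.7, the median of OsbZIP42 at the 1171 OsbZIP77 peaks that had OsbZIP42 and lacked OsbZIP69.

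**Figure D1:**
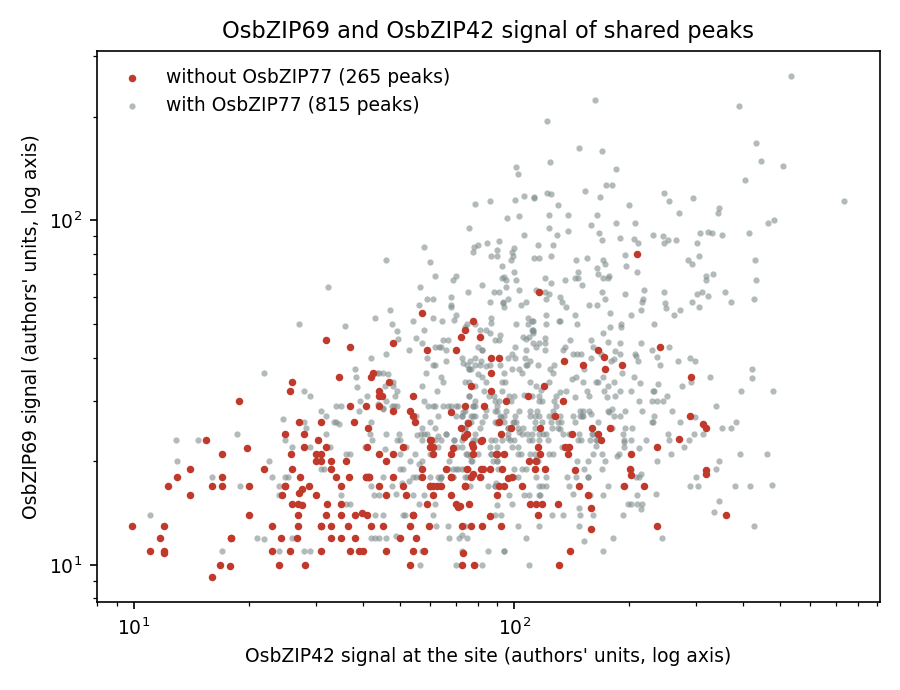
OsbZIP69 signal (vertical, log axis) against the signal of the nearest OsbZIP42 peak (horizontal, log axis) in the authors' units, 1 point per OsbZIP69 peak with OsbZIP42. The 265 peaks without OsbZIP77 (red) lie low on both axes, with medians of 18.4 and 58.0, yet spread along most of the OsbZIP42 range, up to 360.

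The share of OsbZIP69 peaks that lacked OsbZIP77 varied steeply with either signal. Among all 1080 OsbZIP69 peaks with OsbZIP42 it was 24.5% (22.0 to 27.2). Over the whole OsbZIP42 list, 92.2% of peaks lacked OsbZIP77. That share is largely set by list length, 28323 peaks for OsbZIP42 against 2059 for OsbZIP77, and is no contrast in binding. When the 1080 peaks were put in 10 equal groups by OsbZIP69 signal, 59 of 108 lacked OsbZIP77 in the weakest group, or 54.6% (44.8 to 64.2), and 1 of 108 in the strongest, or 0.926% (0.0234 to 5.05). By OsbZIP42 signal the share was 64.8% (55 to 73.8) in the weakest group and 10.2% (5.20 to 17.5) in the strongest. The course by OsbZIP42 signal was flatter at the top: from the sixth group upward the shares lay between 9.26% and 15.7%, with intervals that overlap. By OsbZIP69 signal the shares lay between 13.9% and 17.6% in the sixth to eighth groups, with overlapping intervals, and were 3.70% and 0.926% in the last 2.

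**Figure D2:**
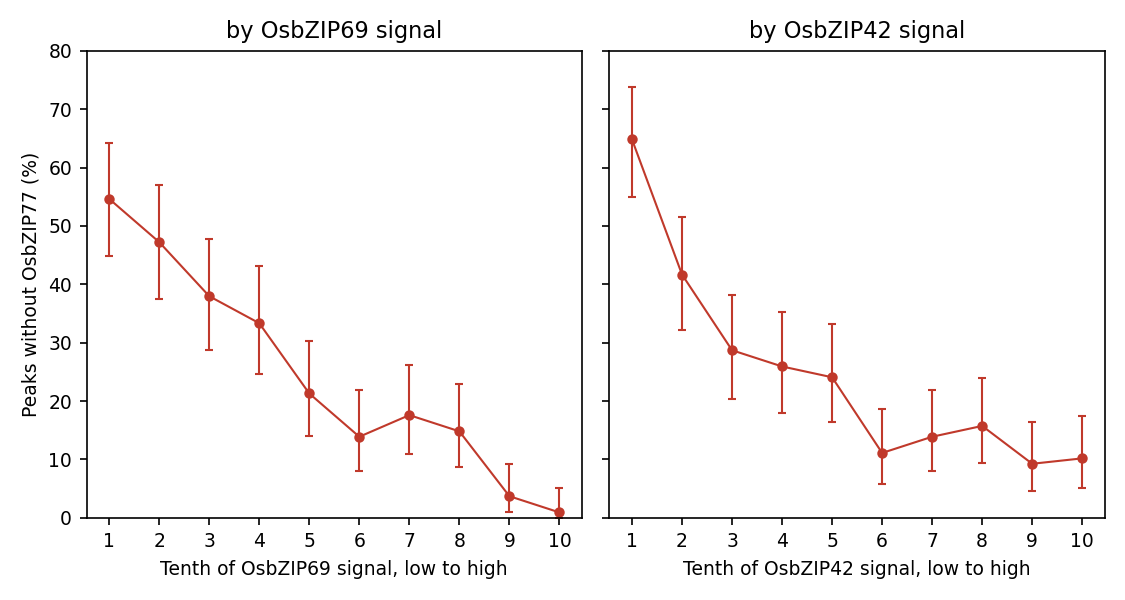
Percentage of OsbZIP69 peaks with OsbZIP42 that lacked OsbZIP77 (vertical) in 10 groups of 108 peaks by OsbZIP69 signal (left) and by OsbZIP42 signal (right), with exact 95% intervals. The shares run down to 0.926% by OsbZIP69 signal. By OsbZIP42 signal they lie between 9.26% and 15.7% from the sixth group upward, with 10.2% in the last.

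The sites were also split by both signals at once, in 5 groups each. Where both were in their weakest group, 59 of 87 peaks lacked OsbZIP77, or 67.8% (56.9 to 77.4), the highest share of the 25 combinations. Where OsbZIP42 was in its strongest group and OsbZIP69 in its weakest, 4 of 24 lacked it, or 16.7% (4.74 to 37.4). With both in the strongest group, 1 of 80 did, or 1.25% (0.0316 to 6.77). Where OsbZIP69 was strongest and OsbZIP42 weakest there were few sites, and 0 of 8 lacked OsbZIP77, so that the limit on the share, set at 3 counts over the number of sites, is 37.5%. Of the 286 sites in the upper 50% of the OsbZIP69 list and the upper 5% of the OsbZIP42 list, 15 lacked OsbZIP77, or 5.24% (2.96 to 8.50).

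OsbZIP69 was then compared at like OsbZIP42 signal. The 1080 peaks were divided into 10 strata of 108 by OsbZIP42 signal, and each stratum's value for peaks with OsbZIP77 was weighted by its number of peaks without OsbZIP77. OsbZIP69 remained weaker at sites without OsbZIP77 in all 10 strata. Its mean rank stood at 68.6% of the list (SD 22.7 across 265 sites) without OsbZIP77 and at 51.1% with OsbZIP77 at like OsbZIP42 signal. The difference of 17.4 percentage points compares with 25.8 points before strata, from a mean of 42.8% (SD 27.4 across 815 sites) with OsbZIP77. The median OsbZIP69 signal, averaged over strata in the same way, was 18.6 without and 26.4 with OsbZIP77. The share in the upper 50% of the list was 21.1% without and 48.8% with OsbZIP77. The strata left little difference in OsbZIP42 itself, with means of 75.8 without and 78.1 with OsbZIP77.

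The strata differed in size of gap. In the weakest, where OsbZIP42 signal ran from 9.9 to 33.0, the median OsbZIP69 signal was 16.4 over 70 sites without OsbZIP77 and 20.5 over 38 sites with it. In the strongest, from 232 to 736, it was 23.2 over 11 sites without OsbZIP77 and 40.2 over 97 sites with it. Across the strata the medians without OsbZIP77 lay between 16.4 and 23.2, and those with OsbZIP77 between 20.5 and 40.2. In mean OsbZIP69 rank the gap followed no steady course with OsbZIP42 signal. It was 12.9 points in the weakest stratum, 30.3 in the seventh, 13.5 in the ninth and 27.7 in the strongest. The 5 upper strata hold 10 to 17 sites without OsbZIP77 each. Without these thinly filled strata the rank difference was 15.2 points.

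**Figure D3:**
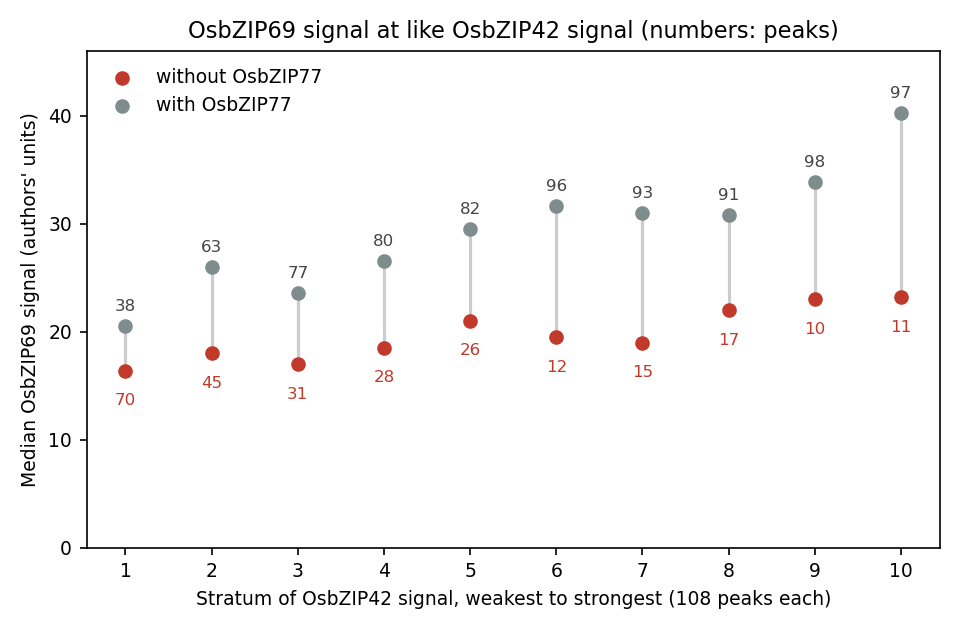
Median OsbZIP69 signal (vertical, authors' units) in 10 strata of OsbZIP42 signal (horizontal, weakest to strongest) for peaks without OsbZIP77 (red) and with it (grey), with the number of peaks beside each point. The red point lies below the grey one in each stratum, by 4.1 in the weakest and 17.0 in the strongest.

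OsbZIP42 was in turn compared at like OsbZIP69 signal. In 10 strata, the mean OsbZIP42 signal was 75.8 at sites without OsbZIP77 and 111 at sites with it, lower without OsbZIP77 in 9 of the 10 strata. The deposited −log10 q of the OsbZIP69 peak averaged 3.41 without OsbZIP77 and 4.02 with it at like OsbZIP69 signal. Across sites, OsbZIP69 and OsbZIP42 signals were weakly related in both sets, with a Spearman's rho of 0.32 over the 265 sites without OsbZIP77 and 0.30 over the 815 sites with it. These points share their 2 libraries and their peak caller. Without strata, the ratio of OsbZIP69 to OsbZIP42 signal differed between the sets by much less than its spread across sites. Its median log2 was −1.54 (SD 1.05 across sites) without OsbZIP77 and −1.67 (SD 1.06) with it, in unmatched units. This ratio does not compare sites at like OsbZIP42 signal. There the median OsbZIP69 signal, averaged over strata, was 18.6 without and 26.4 with OsbZIP77, and lower without it in 10 of 10 strata.

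In signal, though not in the closeness of the OsbZIP42 centre, sites without OsbZIP77 lay next to those where OsbZIP77 was weak. The 815 peaks with OsbZIP77 were put in 5 equal groups by OsbZIP77 signal. The median OsbZIP69 signal was 18.4 without OsbZIP77, and 20, 26.0, 27.8, 34.0 and 61.0 in the groups with OsbZIP77, from the weakest to the strongest. The median OsbZIP42 signal was 58.0 without OsbZIP77, and 70.0, 98.9, 104, 115 and 127 in the same groups. Both therefore run in 1 order, with the sites without OsbZIP77 at the low end. At like OsbZIP42 signal, the mean OsbZIP69 rank without OsbZIP77 lay 4.03 points further down the list than in the weakest OsbZIP77 group, and was further down in 6 of 10 strata. Against the next weakest group the gap was 14.7 points, in 10 of 10 strata. The OsbZIP42 centre lay within 10 bp at 80.4% of sites without OsbZIP77, the lowest share. It did so at 88.3% of the weakest OsbZIP77 group and at 86.5% to 91.4% over the 5 groups, with no such order among them. At 17.7% of sites without OsbZIP77, 2 or more OsbZIP42 centres lay within 200 bp. From the weakest to the strongest OsbZIP77 group this share was 23.9%, 24.5%, 30.1%, 24.5% and 31.9%, again lowest without OsbZIP77. The OsbZIP77 list began at a signal of 9.5 and its weakest group here ran from 10 to 20.2. How many of the 265 sites had OsbZIP77 binding below the limit of that list was not tested, since read depths are unknown.

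**Figure D4:**
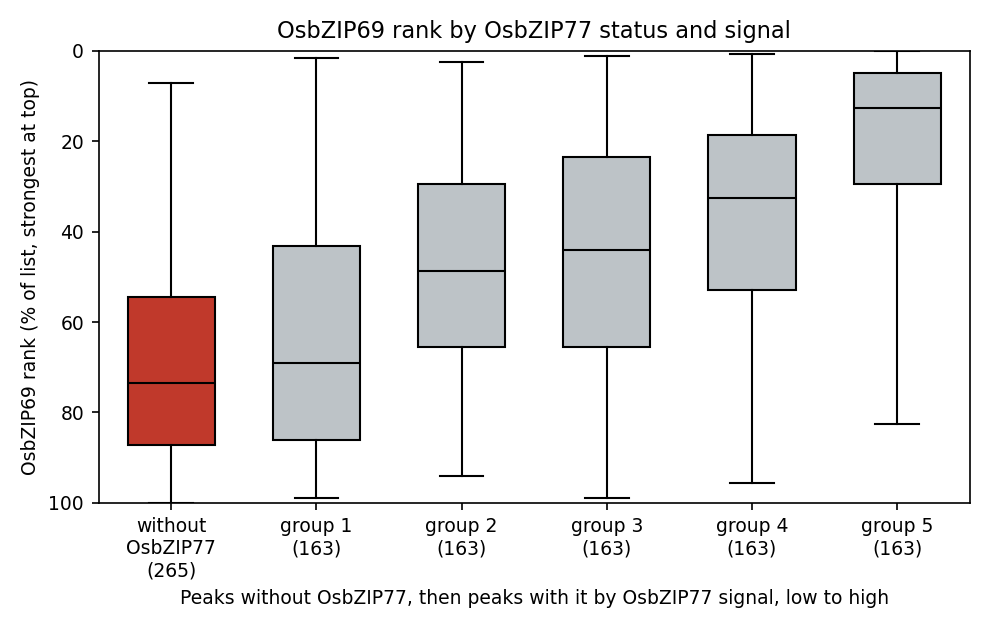
OsbZIP69 rank as a percentage of its list (vertical, strongest at the top) for the 265 peaks without OsbZIP77 (red) and for 5 groups of 163 peaks with OsbZIP77 by its signal, low to high (grey). Boxes span the quartiles, lines mark medians and whiskers the full range; the median is 73.4% without OsbZIP77 and 69% and 12.7% in the lowest and highest OsbZIP77 groups.

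A few sites without OsbZIP77 were nevertheless strong for OsbZIP69. The strongest lay on chromosome 11 from 5409898 to 5410098, with an OsbZIP69 signal of 80 (rank 78, in the upper 7.05%) and an OsbZIP42 signal of 210, in the upper 0.923% of its list. Its nearest OsbZIP77 centre was 254 kb away. It was the single site of this set among the 37 that were in the upper 10% of the OsbZIP69 list and the upper 1% of the OsbZIP42 list. Next came the site on chromosome 6 from 26635389 to 26635589, with signals of 62.0 for OsbZIP69 and 116 for OsbZIP42, and 24.4 kb to OsbZIP77. The site on chromosome 2 from 24211905 to 24212105 had nearly equal signals in the unmatched units, 54.0 for OsbZIP69 and 57.2 for OsbZIP42. On chromosome 9 from 11809843 to 11810043 the signals were 51.0 and 78.0 in that order, and the nearest OsbZIP77 centre was 406 kb away.

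Below these, 7 sites had OsbZIP69 signals of 43.0 to 48.0, the last 2 tied at 43.0. From the strongest down, they spanned 9825562 to 9825762 on chromosome 2, 29265002 to 29265202 on chromosome 1, 4506434 to 4506634 on chromosome 12, 4312870 to 4313070 on chromosome 6, 7416538 to 7416738 on chromosome 5, and, tied, 19858700 to 19858900 on chromosome 10 and 26016381 to 26016581 on chromosome 12. The chromosome 10 site had an OsbZIP42 signal of 241, in the upper 0.600% of its list. At 2 of the 7, OsbZIP69 exceeded OsbZIP42 in signal: the chromosome 6 site had 45.0 for OsbZIP69 and 32.0 for OsbZIP42, and the tied chromosome 12 site had 43.0 and 37.0. They stood at 34.7% and 28.3% of the OsbZIP42 list. OsbZIP69 signal exceeded OsbZIP42 signal at 18 of the 265 sites without OsbZIP77, or 6.79% (4.08 to 10.5), and at 40 of the 815 with it, or 4.91% (3.53 to 6.62), and these intervals overlap. As the units were not matched between libraries, a higher OsbZIP69 value does not mean stronger OsbZIP69 binding, and these counts depend on the scales.

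As a set, sites without OsbZIP77 but with strong OsbZIP42 stood higher in the OsbZIP69 list than the 265 did. Where OsbZIP42 signal ran from 169.2 to 231.8, their mean OsbZIP69 rank was 51.2% over 10 sites. From 232 to 736 it was 58.8% over 11 sites, against 68.6% over the 265. The very strongest for OsbZIP42, named below, were nevertheless ordinary or weak for OsbZIP69. On chromosome 7 from 5951191 to 5951391 OsbZIP69 had a signal of 14.0, at 89.0% of its list, where the OsbZIP42 signal was 360 (rank 34) and its centre lay 43 bp away. On chromosome 8, 2 OsbZIP69 peaks with signals of 18.9 and 18.4 and centres at 20277180 and 20277181 shared a single OsbZIP42 peak of 320. They count as 2 of the 265 peaks but lie 1 bp apart, so that the set covers 264 OsbZIP42 peaks. On chromosome 10 from 21416379 to 21416579 the signals were 25 for OsbZIP69 and 318 for OsbZIP42, with an OsbZIP77 centre 1930 bp away. On chromosome 3 from 12898328 to 12898528 they were 25.6 and 313.

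At the other end, the 6 sites with the lowest OsbZIP42 signal, 9.9 to 12, the last 3 tied at 12, were also near the end of the OsbZIP69 list. From the weakest up, they spanned 4305200 to 4305400 on chromosome 12, 5128212 to 5128412 on chromosome 11, 3240840 to 3241040 on chromosome 7, 31683817 to 31684017 on chromosome 2, 11844766 to 11844966 on chromosome 8 and 19666231 to 19666431 on chromosome 10. Their OsbZIP69 signals were between 10.8 and 13, or 91.4% to 98.1% of that list. At 5 of these 6 the centres of both proteins lay 1 bp apart despite the low signals.

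The absence of OsbZIP77 was seldom a matter of the window. The nearest OsbZIP77 centre was 47.8 kb away in the median, with quartiles of 19.0 and 134 kb. It lay within 200 bp at 6 sites, within 500 bp at 7 and within 1000 bp at 11 of the 265. Just outside the 100 bp limit were sites on chromosome 8 (23807666 to 23807866), with OsbZIP77 107 bp away, and on chromosomes 7 (19413295 to 19413495) and 10 (22297677 to 22297877), each with OsbZIP77 116 bp away. Their OsbZIP69 signals were 18.9, 22.4 and 18.2. Just inside it, with OsbZIP77 88 or 89 bp away, the OsbZIP69 signals were 14.2, 31.8 and 11. For OsbZIP42, the members nearest to the limit had centres 80, 80 and 71 bp away and OsbZIP69 signals of 14.0, 16.2 and 22.0, while the closest peaks beyond it were 115, 118 and 120 bp away with 12, 15 and 17.

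At most sites the centres of OsbZIP69 and OsbZIP42 nearly coincided. The OsbZIP42 centre lay within 10 bp at 213 of the 265 sites without OsbZIP77, or 80.4% (75.1 to 85.0). It did so at 721 of the 815 with OsbZIP77, or 88.5% (86.1 to 90.6), against 86.5% over both. These intervals do not overlap, but they cover the counting of peaks alone and carry no variation between libraries. At like OsbZIP42 signal the shares were 80.4% without and 91.6% with OsbZIP77, lower without OsbZIP77 in 10 of 10 strata. The commonest distance was exactly 1 bp, at 188 of the 265 sites and at 678 of the 815. At sites without OsbZIP77 the OsbZIP42 centre was at the lower coordinate in 104 of these and at the higher in 84. The shares of the 265 were 39.2% (33.3 to 45.4) and 31.7% (26.1 to 37.7), with overlapping intervals. At sites with OsbZIP77 the counts in the same order were 329 and 349. A distance of 0 bp occurred at 0 of 265 sites without OsbZIP77 and 0 of 815 with it, which by the same rule allow shares of up to 1.13% and 0.368%. By contrast, OsbZIP77 centres were 0 bp from OsbZIP69 at 702 of the 815 sites that had them. The 52 sites without OsbZIP77 whose OsbZIP42 centre lay more than 10 bp away had a median OsbZIP69 signal of 17.95 and a median OsbZIP42 signal of 73.1, against 18.9 and 53.3 at the 213 closer ones.

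Some sites lay in groups of OsbZIP42 peaks. At 47 of the 265 without OsbZIP77, or 17.7% (13.3 to 22.9), 2 or more OsbZIP42 centres lay within 200 bp, against 220 sites with OsbZIP77, or 27.0% (24.0 to 30.2), and 24.7% over both. At like OsbZIP42 signal the shares were 17.7% and 23.4%, lower without OsbZIP77 in 7 of 10 strata. The 265 sites were scattered: 3 pairs of neighbouring centres lay within 10 kb of each other, 1 of them the pair 1 bp apart on chromosome 8. The nearest HALO-GST centre was 846 bp away, from a site on chromosome 7 from 8337339 to 8337539 that was chosen after its values were seen, and no other of the 265 had one within 1000 bp.

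The share without OsbZIP77 varied along the genome. By chromosome it was highest on chromosome 4, with 32 of 87 OsbZIP69 peaks that had OsbZIP42, or 36.8% (26.7 to 47.8), and lowest on chromosome 12, with 15 of 81, or 18.5% (10.8 to 28.7). Chromosome 9 came next to the top, with 16 of 52, or 30.8% (18.7 to 45.1). The other 9 chromosomes lay between 21.4% and 26.6%. Taking for each peak the share of its OsbZIP42 stratum genome-wide gives 22.4 peaks for chromosome 4, against the 32 found, and 19.5 for chromosome 12, against 15. The interval for chromosome 4 starts above the 25.8% that its OsbZIP42 signals give. It was picked as the highest of 12, and the intervals of all chromosomes overlap.

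**Figure D5:**
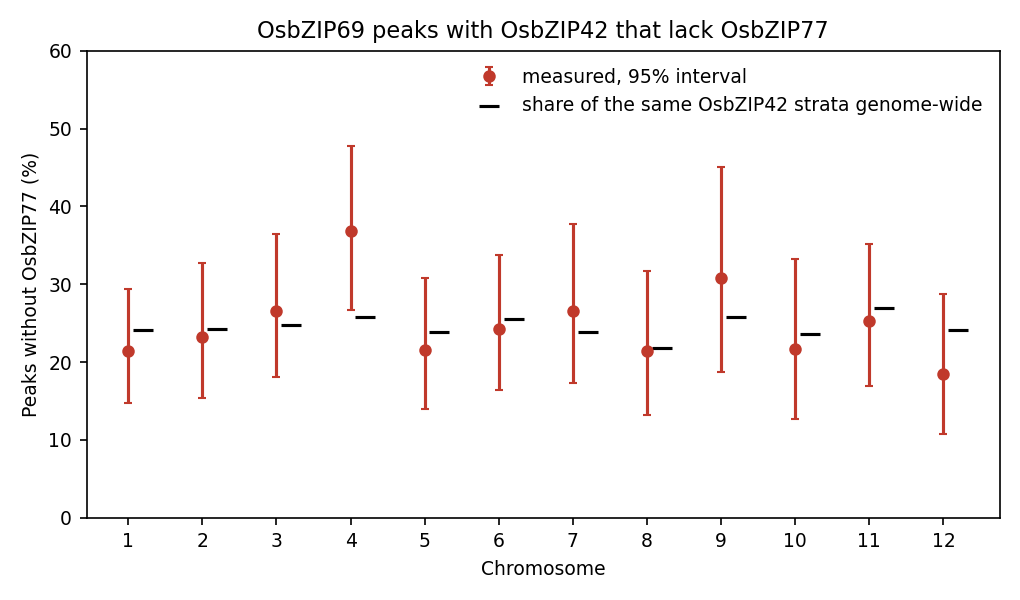
Percentage of OsbZIP69 peaks with OsbZIP42 that lacked OsbZIP77 (vertical) on each of the 12 chromosomes (horizontal), with exact 95% intervals; black bars give the share that the same OsbZIP42 strata had genome-wide. Chromosome 4 stands at 36.8% against 25.8%, and on the other chromosomes the interval includes the bar.

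Position within a chromosome was described with all chromosomes pooled. Each chromosome was cut in 5 equal parts from its first base to the end of the last peak that any list had there. From the low to the high coordinates the shares were 22.4% (17.4 to 28.1), 35.5% (28.0 to 43.6), 28.0% (21.2 to 35.7), 23.6% (18.2 to 29.7) and 19.5% (15.1 to 24.5). The second part held 55 sites without OsbZIP77, against 42.5 from its OsbZIP42 strata, and the middle part 44 against 41.6. Single chromosomes did not all follow the pooled order: the middle part held 0 of 8 on chromosome 11 and 2 of 14 on chromosome 1, the second part 0 of 4 on chromosome 10, and the last part 10 of 28 on chromosome 3. On chromosome 4 the first and second parts held 8 of 13 and 4 of 7 peaks without OsbZIP77, and the last part 7 of 28. Local peak density moved the same way. Where 11 to 75 OsbZIP42 centres lay within 500 kb to either side, 109 of 360 peaks lacked OsbZIP77, or 30.3% (25.6 to 35.3), and where 96 to 145 did, 71 of 360, or 19.7% (15.7 to 24.2). OsbZIP42 strata alone give 98.1 and 82.2 for these groups, so part of this contrast goes with OsbZIP42 signal. Within 500 kb, sites without OsbZIP77 had a mean of 5.83 OsbZIP77 centres (SD 3.31), and sites with it had 6.54 others (SD 3.35).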

How the data were processed

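Each of the 4 DAP-seq libraries has 1 deposited peak list. Per the submitters' processing notes, the aligner was Bowtie2 2.2.8; the build was not given in the sources used here. Per the deposited file names, peaks were called with GEM on single libraries, the bZIP lists against a negative control and HALO-GST without one; the OsbZIP77 name lacks the mark for reticulocyte lysate that the other 3 carry. The authors' deposited signal per peak has no stated unit or scaling between libraries. No deposited −log10 q-value is below 2.00, so each list was limited to q-values of 0.01 or less. The deposited peak score was not used. Every interval is 201 bp wide; coordinates are 1-based in the authors' build. Read depth is unknown.

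Groups came from sample titles. Each OsbZIP69 peak took the values of its nearest OsbZIP42, OsbZIP77 and HALO-GST centres. Tied ranks were averaged. Values at like signal used 10 strata of equal size, weighted by the number of peaks without OsbZIP77. Shares have Clopper-Pearson 95% intervals. No test was run, since each protein had 1 library and sites are not replicates. The members and measures were chosen with earlier results of these data known. Named sites are the 10 with the highest OsbZIP69 signal, the 5 with the highest and the 5 with the lowest OsbZIP42 signal, and 3 on each side of each window, with ties ordered by chromosome and position; 1 further site tied on OsbZIP69 signal and 1 on OsbZIP42 signal are named too, added after their values were seen. The gene table used for reference has coordinates of another assembly, so no gene, motif or sequence was assigned. The code was checked on simulated lists (Python 3.11.15, pandas 2.3.3, scipy 1.17.1).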

Additional observations from a re-analysis of the deposited data

How the results depend on the processing

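Of 65 alternatives for 9 values, 57 stayed within 1.5 times the main value or, for shares, within its interval. Of these 65, 14 were chosen after seeing the data. The other 8 come from keeping the OsbZIP69 peaks in the upper 50% by q-value, which by construction removes weak peaks. That left 49 sites without OsbZIP77, or 8.89% of those with OsbZIP42, from 4.76% on the lowest to 17.8% on the highest chromosome. Of these 49, 63.3% were in the upper 50% by signal and 24.5% had 2 or more OsbZIP42 centres within 200 bp. The rank differences without minus with OsbZIP77 were 8.59 points for OsbZIP69 at like OsbZIP42 signal and 7.20 points for OsbZIP42. Over all 13 alternatives the OsbZIP69 rank difference at like OsbZIP42 signal ran from 8.59 to 24.1 points. Without chromosome 4, chosen after seeing the data, it was 17.6 points and the highest chromosome was 9, at 30.8%. Pairing each site without OsbZIP77 with a site that had it, by closest OsbZIP42 signal, gave an OsbZIP69 rank difference of 22.4 points. No library could be left out, and libraries could not be paired because there was 1 library a protein. Unknown depth limits any statement on absent OsbZIP77 peaks.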
